A study of Mus musculus with 4 samples.

Results

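Across the autosomes, 1744 of 9442 listed sites (18.5%, 95% Wilson interval 17.7 to 19.3) scored below 50 in all 4 libraries, in both the wild type and the Tet1 knockout. These sites were chosen by the scores themselves: a site entered when it lay on chromosomes 1 to 19, had a score in every library, and was below 50 in wild type replicates 1 and 2 and in knockout replicates 1 and 2. Their low scores are therefore a description and not a result. All samples were LSK cells, a sorted fraction enriched for blood stem and progenitor cells (negative for lineage markers, positive for Sca-1 and c-Kit), from mice 6 months old. The wild type group held 2 mice and the Tet1 knockout group 2 mice, with 1 library each. The labels name no strain, sex, litter or design of the knockout allele, and the surface markers of LSK cells cannot be checked in genomic DNA. The score, named HELP-GT in the labels, is read at CCGG sites cut by MspI and HpaII and runs from 0 to 100. Its formula, its depth per site and whether a low value means more or less 5-hydroxymethylcytosine (5hmC) are stated in none of the sources used here, so all values below are scores.

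TET1 belongs to a family of dioxygenases, with TET2 and TET3, that oxidise the methyl group of 5-methylcytosine to 5hmC and further to formyl and carboxyl forms. These oxidised bases are intermediates of active demethylation, and 5hmC also persists as a mark in its own right. Blood stem and progenitor cells express more than 1 TET enzyme, and loss of TET2 is common in blood cancers. In HELP-GT, as generally described, a glucosyltransferase attaches glucose to 5hmC, which blocks MspI at that site.

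The list of sites carries a condition that touches these results. All 9738 listed sites had both libraries of at least 1 genotype above 0 and below 50, and no site broke this condition, which was found from the values. A score of exactly 0 therefore did not count toward listing. All 141 listed sites with a 0 in a wild type library had both knockout scores between 0 and 50, all 178 with a 0 in a knockout library had both wild type scores there, and no listed site had a 0 in both genotypes. Where a site held a 0 in 1 genotype, a low score in the other was fixed by the listing. The other listed autosomal sites comprised 2190 below 50 in the wild type libraries alone, 1293 in the knockout libraries alone, and 4215 below 50 in 3 libraries and not in the fourth.

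Within the 1744 sites, scores lay mostly in the upper part of the range that the rule allowed. The median score was 38.2 in wild type replicate 1, 36.8 in wild type replicate 2, 39.0 in knockout replicate 1 and 35.6 in knockout replicate 2. Between 40 and 50 lay 43.2% and 38.6% of the scores in wild type replicates 1 and 2, and 47.4% and 37.0% in knockout replicates 1 and 2. Scores below 25 made up 15.9% and 18.4% in wild type replicates 1 and 2, against 13.8% and 25.7% in knockout replicates 1 and 2. Knockout replicate 2 thus had the lowest median and the most scores below 25, and knockout replicate 1 the highest median and the fewest.

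**Figure D1:**
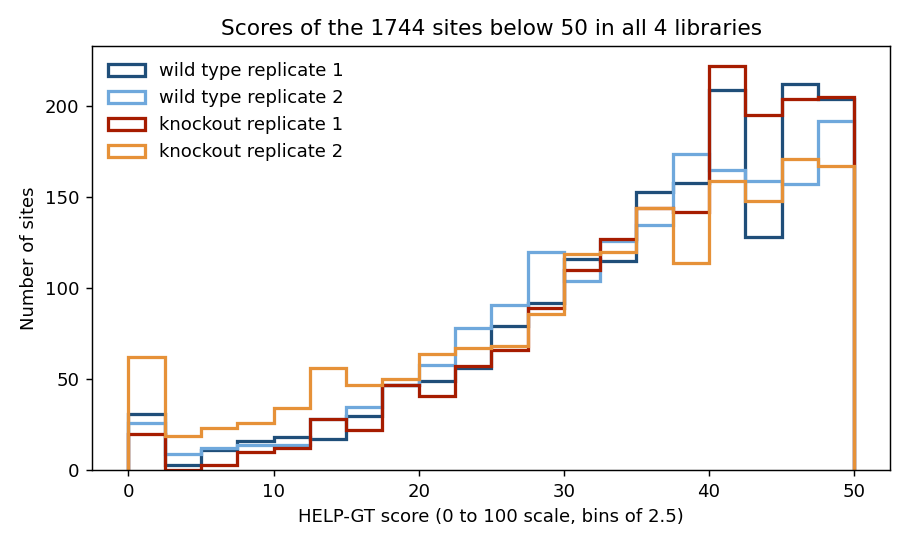
Number of sites (vertical axis) by HELP-GT score in bins of 2.5 (horizontal axis) for the 1744 autosomal sites below 50 in all 4 libraries, 1 line per library. Most scores lie in the upper part of the allowed range in every library, and knockout replicate 2 (orange) has the tallest bin at 0, with 62 sites at exactly 0.

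Few sites were far below 50 in every library. The highest of a site's 4 scores had a median of 46.4, and the lowest a median of 25.0. All 4 scores were below 40 at 260 sites (14.9%), below 30 at 28 (1.61%), below 25 at 9 and below 20 at 2. At the other end, 83 sites (4.76%) scored at least 40 in all 4 libraries. The site at position 62783940 of chromosome 8 (mm9, as are all positions here) had the lowest maximum, with 11.0 and 19.1 in wild type replicates 1 and 2 and 0 and 15.1 in knockout replicates 1 and 2. On chromosome 6 the site at 98909623 scored 0 and 12.1 in wild type mice, against 19.2 and 18.0 in knockout mice. The site at 86513919 of chromosome 7 scored 6.67 and 19.8 in wild type mice, against 20.7 and 19.5 in knockout mice. These are the lowest-scoring sites by this measure, and 2 of the 3 hold a 0 in 1 library.

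Among the next 5 sites in this order, position 63214282 of chromosome 13 was the most even, with 22.6 and 19.3 in wild type mice, against 19.5 and 17.6 in knockout mice. Position 16570307 of chromosome 12 scored 11.0 and 22.8 in wild type mice, against 16.5 and 17.1 in knockout mice. Position 154289727 of chromosome 4 scored 3.58 and 7.36 in wild type mice, against 23.6 and 22.2 in knockout mice, so that the genotypes did not overlap there although all 4 scores were low. The remaining sites, position 58623010 of chromosome 15 and position 101998601 of chromosome 3, each held a 0 in 1 library and reached 22.3 and 23.9.

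The 4 scores of a site often differed widely. The range from lowest to highest score had a median of 19.6 (quartiles 13.3 and 27.7), was below 20 at 907 sites (52.0%), below 10 at 238 (13.6%) and below 5 at 35 (2.01%). The most even site, position 57197738 of chromosome 19, scored 47.2 and 48.4 in wild type mice, against 46.9 and 47.0 in knockout mice. On chromosome 6, position 122541190 scored 37.7 and 38.7 in wild type mice, against 39.1 and 37.6 in knockout mice. Sites at 58465302 of chromosome 15 and 124037272 of chromosome 8 had ranges of 1.90 and 1.95. At these 4 sites the score was nearly the same in all mice, at levels from 37.6 to 48.4.

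Libraries of the same genotype differed at a site about as much as libraries of different genotype. The median gap between replicates was 8.98 for wild type mice, against 8.89 for knockout mice. Between a wild type and a knockout library it ran from 8.72 (wild type replicate 1 and knockout replicate 1) to 10.5 (wild type replicate 1 and knockout replicate 2), with a median of 9.41 over the 4 pairs. Across the 1744 sites Pearson's r was 0.187 for the pair of wild type libraries, against 0.247 for the knockout pair. For the 4 pairs of 1 library of each genotype it lay between 0.0748 and 0.120. These gaps and correlations are descriptions. All sites share the same 4 libraries, and the rule shortened the range, which also limits the gaps between genotypes. Sites with a 0 were listed on the other genotype alone.

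Averaged over the sites, the genotypes lay within the spread of the replicates. The mean score of a library was 35.3 ± 0.690 for the wild type against 34.7 ± 2.80 for the knockout (SD over libraries, n = 2 each). The gap between the knockout libraries, 3.96, exceeded the difference between genotypes. The knockout minus wild type difference of a site had a median of -0.33 (quartiles -7.96 and 6.56), with 850 sites above 0 and 894 below. Its sign depended on single libraries: the median was 0.62 without wild type replicate 1, 0.93 without knockout replicate 2 and -1.94 without knockout replicate 1. Over all 9442 autosomal sites the median difference was 4.64. The rule held both genotypes under 50, so these medians describe the chosen sites, and no test is attached to them.

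Knockout scores both exceeded the higher wild type score at 299 of the 1744 sites (17.1%) and both fell short of the lower one at 324 (18.6%). Over all 9633 sites scored in every library, X and Y included, the shares were 34.2% above and 21% below, in a list that was itself chosen on these scores. Which of the 2 counts was larger also turned with the library left out: only without knockout replicate 1 did the lower count remain the larger one, at 1357 against 877. After each library was shifted to a common median, 246 of 1740 sites had both knockout scores above and 368 both below. Single sites were compared with limma, fitted on all 9633 sites with Benjamini-Hochberg adjustment. At an adjusted p of 0.05 it called 0 of the 1744 sites higher and 0 lower in the knockout, against 0% and 0% of all sites, and the smallest adjusted p among the 1744 was 0.125. At an unadjusted p of 0.05 it gave 16 sites higher and 21 lower, against 14.2% and 8.15% of all sites, and 32 of these 37 sites held a score of 0. Sites kept below 50 in all libraries cannot differ by more than 50, and 0 calls do not mean equal scores.

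The calls depended on scores of 0 when the scale was changed. With limma on log2(score + 1), Benjamini-Hochberg adjustment called 7 of the 1744 sites higher in the knockout and 10 lower, against 2.57% and 1.58% of all sites. All 17 had a score of 0 in both libraries of 1 genotype, and they are the only sites of the 1744 that did. The gap between mice of that genotype is 0 at each of them.

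The same zeros marked the ends of the genotype difference. On chromosome 5 the site at 77587441 scored 0 in both wild type mice against 45.8 and 45.7 in knockout mice. The knockout mean was thus higher by 45.7 ± 11.3 units (SE from limma), at an adjusted p of 0.125 by limma. That SE draws on the variance of other sites and is not the spread of the mice at this site. Next came position 70682450 of chromosome 9, at 0 in both wild type mice against 49.1 and 33.6 in knockout mice. Position 73631862 of chromosome 15 scored 0 and 14.5 in wild type mice, against 45.8 and 49.0 in knockout mice, and position 47985824 of chromosome 19 was at 0 in both wild type mice against 38.6 and 40.7 in knockout mice. At these 4 sites the knockout scores lay far above the wild type scores, yet all remained under 50.

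In the other direction, position 91980896 of chromosome 2 scored 45.2 and 43.4 in wild type mice against 0 in both knockout mice. The difference, knockout minus wild type, was -44.3 ± 11.0 units (SE from limma, as above), at an adjusted p of 0.125 by limma. Position 98557291 of chromosome 15 scored 38.8 and 49.5 in wild type mice against 0 in both knockout mice. Sites at 43393780 of chromosome 4 and 88539588 of chromosome 6 had wild type means of 42.5 and 41.7 and 0 in both knockout libraries. Each of these sites is below 50 in both genotypes by the rule while its 2 genotypes sit at opposite ends of the allowed range.

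Large differences also occurred without zeros. The following sites were singled out after their values were seen, as those with the largest differences among the 1622 sites above 0 in every library. Position 166994295 of chromosome 2 scored 11.0 and 9.78 in wild type mice, against 43.8 and 47.3 in knockout mice. Position 130609656 of chromosome 1 scored 49.9 and 38.7 in wild type mice, against 11.5 and 6.16 in knockout mice. A shared state below 50 thus included sites where the genotypes differed by 35.1 and -35.5 score units in the mean.

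**Figure D2:**
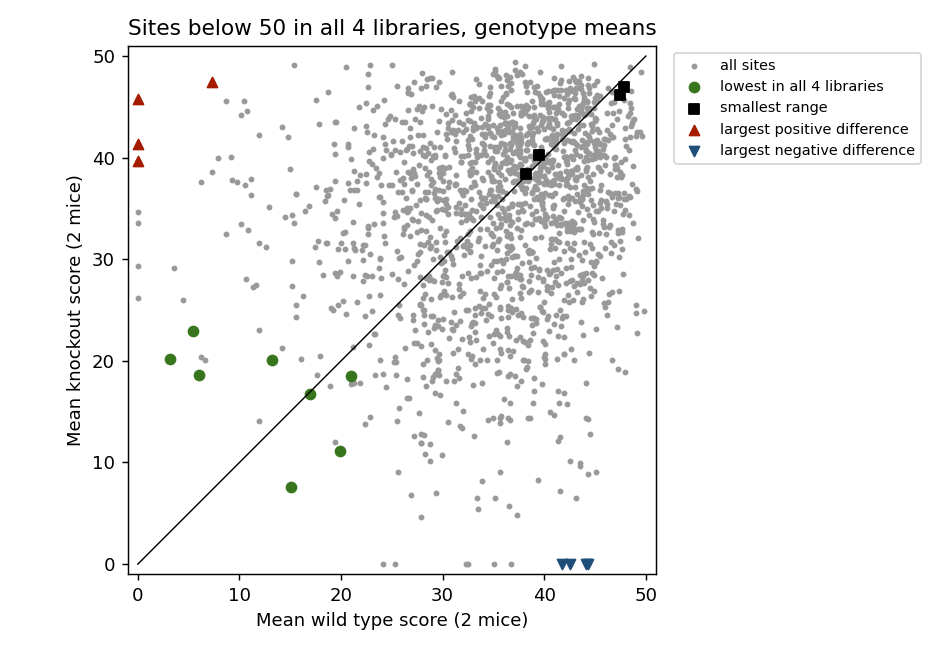
Mean knockout score (vertical axis, 2 mice) against mean wild type score (horizontal axis, 2 mice) for the 1744 sites, with the line of equality. Green circles are the 8 sites with the lowest maximum, black squares the 4 with the smallest range, and triangles the 4 with the largest difference in each direction, 7 of which have a mean of 0 in 1 genotype.

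Sites near the threshold were as follows, with no test. The highest score just inside was 49.988, in wild type replicate 1 at position 113870945 of chromosome 12, where the other libraries scored 37.2, 43.2 and 45.8. At position 114601219 of chromosome 10, wild type replicate 2 gave 49.987, wild type replicate 1 gave 43.1, and the knockout 25.3 and 36.0. At position 114340736 of chromosome 11 the highest was also 49.987, and the other scores ran down to 32.2. Just outside, positions 8592889 of chromosome 2, 130459149 of chromosome 4 and 4216586 of chromosome 19 each scored 50.010 in knockout replicate 2 and below 50 in the other 3 libraries. At each of these 6 sites the score of 1 library set the side of the threshold.

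A score of exactly 0 occurred at 122 of the 1744 sites, in wild type libraries at 50 sites and in knockout libraries at 72. By library there were 31 and 26 zeros in wild type replicates 1 and 2 and 20 and 62 in knockout replicates 1 and 2. At 105 sites 1 library was at 0, and the other 3 scores there had a median of 33.6 (quartiles 21.9 and 40.1). A further 7 sites had 0 in both wild type libraries and 10 in both knockout libraries. Neither the 2190 sites below 50 in the wild type alone nor the 1293 in the knockout alone held a single 0 in any library, which the listing condition requires of the genotype that is below 50.

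Many scores were shared exactly by several sites of the same library. In wild type replicates 1 and 2, 80.4% and 74.1% of the scores at the 1744 sites were shared, to all printed decimals, with at least 4 other sites of the library. In knockout replicates 1 and 2 the shares were 76.3% and 58.4%. At the listed autosomal sites outside the 1744, the shares among scores below 50 were 79.3% and 68.8% in wild type replicates 1 and 2 and 76.4% and 56.8% in knockout replicates 1 and 2. The part of these repeated values in which sites fell below 50 was not tested.

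Some sites repeated each other in all 4 libraries at once. Of the 1744 sites, 45 (2.58%) fell into 18 sets with the same score, to all printed decimals, in every library, and of the 9442 listed autosomal sites 453 (4.80%) fell into 159 such sets. In 13 of the 18 sets the sites shared a chromosome. The largest set held 5 sites of chromosome 7 from position 7299679 to 10436155, each at 31.5 and 33.9 in wild type replicates 1 and 2 and 42.3 and 48.2 in knockout replicates 1 and 2. On chromosome 4 the sites at 41630515, 42055917, 42322670 and 42695885 all scored 40.4, 37.3, 48.1 and 13.3 in the same order of libraries. A further 4 sites near them, at 41633240, 42053208, 42325379 and 42693176, all scored 27.4, 44.9, 39.0 and 47.9. Sites in a set are counted separately here, and whether they are separate measurements was not tested. With each set counted once the sites number 1717.

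Whether a low score in 1 genotype goes with a low score in the other can be read where the listing sets no limit. Sites above 0 and below 50 in both wild type libraries meet the listing condition whatever their knockout scores, so that condition, as inferred from the values, leaves the knockout scores free there. The 6545 such sites were ranked by their mean wild type score and cut into 5 groups of 1309. In the lowest group, with means from 5.47 to 32.2, both knockout libraries were below 50 at 37.0% of sites (95% Wilson interval 34.4 to 39.6). The share was 28.9%, 22.7% and 22.7% in the next 3 groups and 18.2% (16.2 to 20.4) in the highest, with means from 43.9 to 49.8.

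Each knockout library on its own was below 50 less often in the highest group than in the lowest. Knockout replicate 1 was below 50 at 53.1% of sites in the lowest group and 36.7% in the highest, and knockout replicate 2 at 58.7% and 40.6%. Median knockout scores moved from 48.6 and 45.1 in the lowest group to 53.2 and 53.5 in the highest, in replicates 1 and 2. The lowest wild type scores thus went with lower median scores in both knockout mice. The difference between lowest and highest group was 18.8 percentage points (95% Newcombe interval 15.4 to 22.1, counting error over sites only). Sites are not replicates of a genotype, and no test was made across mice.

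Read the other way, from 4519 sites above 0 and below 50 in both knockout libraries, the pattern was narrower. Both wild type libraries were below 50 at 47.0% of sites (43.8 to 50.3) in the lowest group by mean knockout score. In the other 4 groups the share ran from 31.3% to 36.9%. Wild type replicate 1 was below 50 at 67.1% of sites in the lowest group and 49.1% in the highest, and wild type replicate 2 at 61.2% and 47.3%. The step lay mainly between the lowest group and the rest. The difference of 15.7 percentage points fell to 4.18 (-0.178 to 8.51) after each library was shifted to a common median. The share in the lowest group fell to 40.4% and that in the highest rose to 36.2%. The shift moved the scores by 1.54 and 1.71 in wild type replicates 1 and 2. In knockout replicates 1 and 2 it moved them by -2.37 and -0.881. It admits 273 sites that were at 50 or above in a knockout library as deposited. All 273 are listed because both wild type scores were below 50. What these sites contribute to the smaller difference was not tested.

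**Figure D3:**
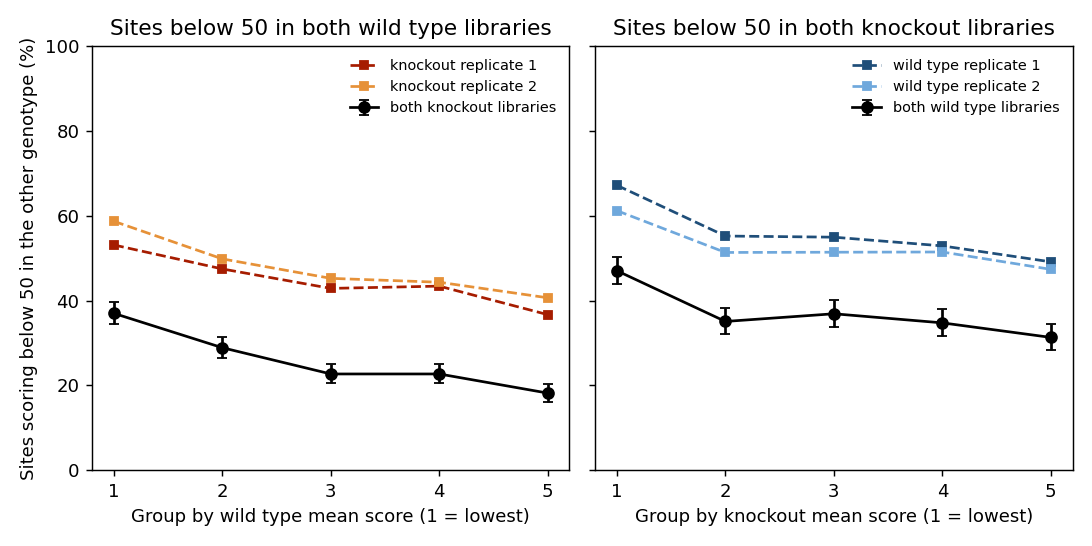
Percentage of sites scoring below 50 in the other genotype (vertical axis) in 5 equal groups of the sites ranked on their mean score (horizontal axis, 1 = lowest), for sites above 0 and below 50 in both wild type libraries (left) or both knockout libraries (right). Black points are both libraries of the other genotype with 95% Wilson intervals, coloured squares each library alone; the lowest group is highest in both panels, at 37.0% and 47.0%.

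At a threshold of 50, though not of 40, a library was low more often than not where its replicate was low. At the 6595 sites below 50 in both wild type libraries, knockout replicate 2 was below 50 at 58.6% (95% Wilson interval 56.8 to 60.4) of the 2975 sites where knockout replicate 1 was also below 50. Where knockout replicate 1 was at 50 or above, the share was 39.5% (37.9 to 41.1) of 3620 sites. With knockout replicate 1 held out, the shares were 54.9% and 36.0%. At the 4591 sites below 50 in both knockout libraries, wild type replicate 1 was below 50 at 71.3% of sites where wild type replicate 2 was and at 39.7% of the others. With wild type replicate 2 held out the shares were 67.2% and 35.2%.

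The second mouse of a genotype was therefore on the same side of 50 more often than not in these 4 libraries, and the 1744 sites were what knockout replicate 2 left of the 2975 that were below 50 in the other 3. Requiring the other genotype to be above 0, which removes sites listed on the held-out genotype alone, gave 57.9%, 54.2%, 70.4% and 66.2% for knockout replicates 2 and 1 and wild type replicates 1 and 2. With 40 in place of 50 for the held-out library and its replicate, knockout replicate 2 was below at 39.9% of sites where knockout replicate 1 was and at 27.2% of the others. With knockout replicate 1 held out these shares were 31.1% and 20.3%. For wild type replicate 1 they were 41.4% and 30.6%, and for wild type replicate 2 40.1% and 29.4%. At 40 a low replicate thus went with a low second library less often than not.

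**Figure D4:**
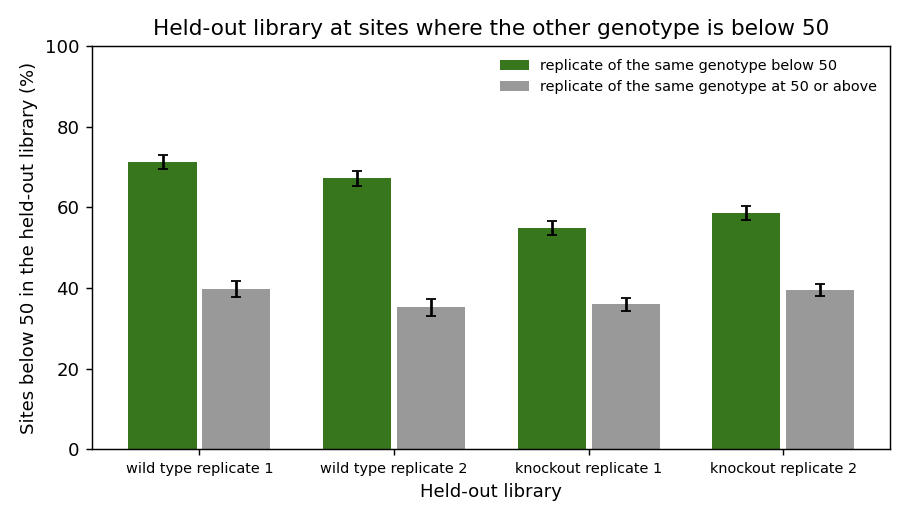
Percentage of sites below 50 in each library held out in turn (vertical axis), at sites where both libraries of the other genotype are below 50. Green bars are sites where the replicate of the same genotype is below 50 and grey bars sites where it is not, with 95% Wilson intervals; green exceeds grey in all 4, from 54.9% against 36.0% to 71.3% against 39.7%.

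The sites lay on all 19 autosomes. Their share of the listed sites ran from 16.3% on chromosome 17 to 20.4% on chromosome 15 over 18 autosomes, and was 24.1% (112 of 464, 95% Wilson interval 20.5 to 28.2) on chromosome 10. The other 18 autosomes together had 18.2%. Chromosome 10 also had the lowest share of sites below 50 in the knockout alone, 9.48%, against 10.9% to 16.9% on the others. On chromosome 10 the sites below 50 in all 4 libraries had medians of 38.3 and 32.6 in wild type replicates 1 and 2 and 37.4 and 32.4 in knockout replicates 1 and 2. No test was made between chromosomes, and chromosome 10 was singled out after its value was seen.

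Chromosome 10 kept the highest share without scores of 0 (23.0%), with a threshold of 40 (5.39%, against 2.62% on the other autosomes), after median centring and without each library except 1. Without knockout replicate 1 its share was 38.1%, second to another autosome at 38.6%. Along chromosome 10 in windows of 10 Mb, the share was 46.4% (13 of 28) from 10 to 20 Mb and 36.8% (7 of 19) from 20 to 30 Mb. In the other 11 windows it ran from 0 of 6 sites (100 to 110 Mb, too few for a firm share) to 26.4% (120 to 130 Mb). Among them were 11.1% from 30 to 40 Mb, 14.8% from 50 to 60 Mb, 21.0% (13 of 62) from 60 to 70 Mb and 25.6% (21 of 82) from 70 to 80 Mb. Over the 165 autosomal windows with at least 20 listed sites the median was 18.4%. The highest value was 46.4%, on chromosome 10 from 10 to 20 Mb. Close behind were 45.5% (10 of 22) on chromosome 15 from 50 to 60 Mb and 42.9% (9 of 21) on chromosome 16 from 0 to 10 Mb. Then came 38.1% (8 of 21) on chromosome 13 from 30 to 40 Mb. The window of chromosome 10 from 20 to 30 Mb has too few listed sites to be among the 165. Tet1 itself is a gene of chromosome 10 in the RefSeq table, but its mm9 position was not used here. Whether that position bears on these shares was not tested.

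**Figure D5:**
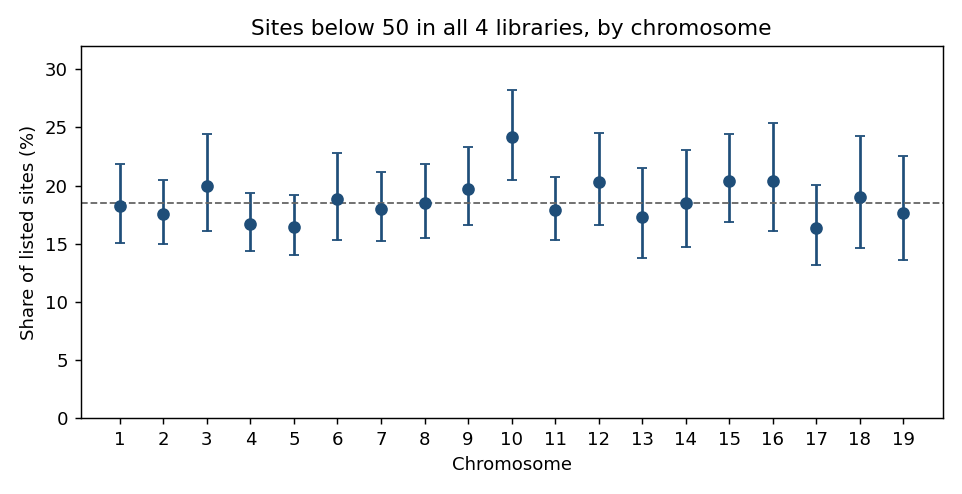
Percentage of listed sites that score below 50 in all 4 libraries (vertical axis) by autosome (horizontal axis), with 95% Wilson intervals that cover counting error over sites. The dashed line is the share over all autosomes, 18.5%, and chromosome 10 lies highest at 24.1%.

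Most of the sites stood alone. The median distance between neighbouring sites of the 1744 on a chromosome was 469646 bp, and 63 (3.61%, 95% Wilson interval 2.83 to 4.60) had another of them within 1000 bp. For sites below 50 in the wild type alone this share was 5.11% (4.27 to 6.12), and for those below 50 in the knockout alone 3.87% (2.95 to 5.06). The intervals overlap, and the 3 sets differ in size, which bears on how many neighbours of its own kind a site can have.

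Among neighbouring listed sites no more than 200 bp apart, 386 pairs in all, both were below 50 in all 4 libraries in 20 pairs and 1 of the 2 in 98. Beside a site below 50 in all 4 libraries, the neighbour was one too in 29.0% of cases, and beside another listed site in 15.5%. From 200 to 1000 bp the shares were 17.8% and 17.6%, and from 1000 to 5000 bp 24.2% and 15.7%. From 5000 to 20000 bp the order was the other way, with 14.5% and 17.5%. From 20000 to 100000 bp they were 21.5% and 18.6%, and above that 22.1% and 17.9%. The shares did not fall steadily with distance.

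Runs were formed from the 1744 sites alone, so that another listed site could lie between 2 of them, as it did in 4 runs. They were short: 30 runs held 2 sites with no gap above 1000 bp, and 1 run held 3. The run of 3 lay on chromosome 8 from 15015842 to 15016508 and included every listed site in that span. Its sites averaged 40.2 and 38.5 in wild type replicates 1 and 2 and 31.2 and 32.4 in knockout replicates 1 and 2, so both knockout means lay below both wild type means. The middle site went partly the other way, with 29.6 and 34.7 in wild type mice, against 28.8 and 44.7 in knockout mice. Of the closest pairs, the one on chromosome 12 between 114855142 and 114855171 averaged 42.4 and 39.6 in wild type mice, against 36.2 and 5.18 in knockout mice, with a 0 in knockout replicate 2 at 1 of its 2 sites. That site, at 114855171, had the same 4 scores as the site at 114931695. The pair on chromosome 7, at 86027556 and 86027611, averaged 39.96 and 44.0 in wild type mice, against 37.2 and 43.2 in knockout mice. The pair on chromosome 4, at 136467023 and 136467085, averaged 39.8 and 26.7 in wild type mice, against 38.6 and 26.2 in knockout mice. On chromosome 1 the sites at 94330358 and 94330412, with 1 other listed site between them, had equal scores in wild type replicate 2 (25.5 at both) and in knockout replicate 2 (21.7 at both), while wild type replicate 1 averaged 42.3 and knockout replicate 1 24.4. Scores within a run were thus equal in some libraries and apart in others.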

How the data were processed

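HELP-GT libraries of LSK cell DNA from 2 wild type and 2 Tet1 knockout mice were measured, 1 per mouse. The authors deposited a score from 0 to 100 per site without a stated formula or direction, and positions follow build mm9 as the submitters' processing notes give it. No source used here states the aligner, counting or depth. The 4 files were joined on chromosome and position, and 105 sites with a blank score were left out. Sites, gene lists and tests were chosen with earlier results of these data known. No annotation or sequence of mm9 was used here, so the positions carry no gene names, and gene lists and sequences were not analysed here.

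The genotypes were compared site by site in R 4.3.3 by limma 3.58.1, with trended empirical Bayes variances and a two-sided test. Benjamini-Hochberg adjustment ran over 9633 sites at a threshold of 0.05. The script was tested on simulated data with a shift larger than sites below 50 in all libraries can show. That test checked the estimated size of the shift, not whether smaller differences are called. Named sites follow fixed ranks: the 8 with the lowest maximum, the 4 with the smallest range, the 4 largest non-overlapping differences in each direction, the 3 nearest the threshold on each side, and 5 runs. Runs were ranked by number of sites and then by shorter span, so after the run of 3 they are the closest pairs. The ranking in 5 groups, the condition on zeros, the chromosome 10 values, the sets of equal sites and the largest differences without zeros were added after seeing the data. Intervals are 95% Wilson or Newcombe and cover counting error over sites only. Python 3.11.15, pandas 2.3.3 and scipy 1.17.1 were used.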

Additional observations from a re-analysis of the deposited data

Results flagged for a closer look

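Sites outside the autosomes did not enter the 1744, and some of them met the same score rule. On the X chromosome 33 of 189 listed sites (17.5%, 95% Wilson interval 12.7 to 23.5) scored below 50 in all 4 libraries, with medians of 34.0 and 36.2 in wild type replicates 1 and 2 and 41.2 and 38.4 in knockout replicates 1 and 2. On the Y chromosome 1 of 2 listed sites (50%, 9.45 to 90.5) did. They were noted because the 1744 sites leave them out, although the shares over all sites and the limma fit above include them, and the interval of the X share includes the autosomal 18.5%.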

How the results depend on the processing

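With a threshold of 40 the sites numbered 260, of which 48 had both knockout scores above and 52 below both wild type scores, and 0.769% had another within 1000 bp. The held-out share of knockout replicate 2 was 39.9% with 40 for that library and its replicate alone. Both wild type libraries stayed at below 50 there, so its sites are not the 260. Leaving out 1 library asks for 3 low scores instead of 4 and gave 2446 to 3174 sites (3174 without knockout replicate 1 and 2975 without knockout replicate 2), 877 to 1044 with knockout scores above and 729 to 1357 below (925 against 729 and 992 against 822 without wild type replicates 1 and 2, 877 against 1357 and 1044 against 1008 without knockout replicates 1 and 2), and 4.66% to 5.17% with a neighbour within 1000 bp. That share was 2.41% within 200 bp and 6.36% within 5000 bp. The median difference of -0.33 moved by less than the replicate spread under all 9 alternatives, from -1.94 without knockout replicate 1, -1.67 after median centring and -1.48 at a threshold of 40 to 0.62 without wild type replicate 1 and 0.93 without knockout replicate 2. On log2(score + 1) limma called 7 sites higher and 10 lower, and in the other 8 alternatives 0 and 0. With the mouse number as a replicate block it called 0 and 0 (13 and 18 at an unadjusted p of 0.05). No label says that equal numbers mark paired mice, and differences between replicates were hardly correlated across genotypes (r = -0.0210). The lowest minus highest of the 5 groups by wild type mean was 12.9 to 18.0 points without 1 library. By knockout mean it was 10.3 to 18.0 without 1 library, 20.7 with scores of 0 kept and 4.18 after median centring. Counting sites with equal scores in all 4 libraries once, an alternative added after seeing the data, gave 1717 sites, 294 above and 322 below, a held-out share of 58.5%, differences between groups of 18.2 and 14.4 points, and 24.1% on chromosome 10. The shares in annotated features were not run. Depth per site is unknown, so the precision of a score cannot be given.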
